A study of Rattus norvegicus with 20 samples.

Results

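The DEAD and DEAH box RNA helicases of the rat medial prefrontal cortex (mPFC) are described here as the genes whose symbol starts with Ddx or Dhx followed by a digit and that reached 5 reads in 10 or more of the 20 libraries. Of 54 symbols of this form, 50 passed (34 Ddx and 16 Dhx genes), among the 16605 genes that passed out of 31038 symbols listed. The 4 symbols that did not pass were Ddx60, with 58 reads over all 20 rats, Ddx3y with 66, Ddx43 with 95 and Ddx4 with 4, and they entered no comparison.

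The study asked what chronic treatment with the serotonergic psychedelic lysergic acid diethylamide (LSD) leaves behind in the expression of mPFC genes. All 20 rats were male Sprague-Dawley, were 6 to 8 weeks old at the first injection per the labels, and received intraperitoneal injections on alternate days for 90 days, followed by 3 weeks without injections. The study's methods give an older age and a longer interval, and these entries are the same for both groups. The 10 LSD rats were given 0.16 mg/kg and the 10 saline rats sterile saline, and 1 poly(A)-selected library was made from the mPFC of each rat. Each group is therefore a group of individual adult males measured at 1 time after the drug was stopped, and bulk tissue RNA cannot tell apart fewer cells of a type from less RNA per cell.

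RNA helicases of these families use ATP to open short RNA duplexes or to strip proteins from RNA. DEAD box enzymes clamp onto a duplex and pry it apart locally, whereas most DEAH box enzymes move along a single strand and pull, often under the control of a G-patch protein. Together they drive the steps of the spliceosome, the assembly of ribosomes, mRNA export, the start of translation, mRNA decay and the sensing of viral RNA, and changes in several of them, such as DDX3X and DHX30, are known causes of neurodevelopmental disorders.

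Sequences upstream of the start sites are shown first for 4 of the helicases that passed the test, as these 4 held CCGGAAG, a motif whose share among helicase promoters was above its share among other promoters. A promoter (the 250 bases before the start site in RefSeq, assembly GRCr8) was at hand for 44 of the 50 helicases, and 7 short motifs were searched on both strands, chosen after values were seen. The core of the sites bound by ETS family factors, CCGGAAG, was in 16 of the 44 (36.4%), in 13.1% of the promoters of 12147 tested genes and in 7.74% of all 27457 promoters. It was in 4 of the 7 helicase promoters whose genes passed the test and in 12 of the 37 whose genes did not. The cAMP response element TGACGTCA was in 5 of 44 (11.4%), in 2.73% of the promoters of tested genes and in 1.70% of all promoters. In the 110 bases up to the start site printed here, 5′ to 3′ in the direction of transcription, capitals mark CCGGAAG and TGACGTCA. In GRCr8 the stretches are chr13:68189547-68189656 for Dhx9, chr2:149044192-149044301 for Dhx36 and chr20:31097239-31097348 for Ddx21, all on the minus strand, and chr16:19159243-19159352 on the plus strand for Ddx49.
Dhx9: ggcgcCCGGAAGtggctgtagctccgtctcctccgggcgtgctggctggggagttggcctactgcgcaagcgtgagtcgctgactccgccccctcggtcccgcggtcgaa
Ddx49: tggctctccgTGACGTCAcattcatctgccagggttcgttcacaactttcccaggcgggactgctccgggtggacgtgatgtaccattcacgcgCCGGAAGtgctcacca
Dhx36: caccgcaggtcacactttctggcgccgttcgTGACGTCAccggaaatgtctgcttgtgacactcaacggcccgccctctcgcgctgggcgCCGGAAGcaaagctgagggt
Ddx21: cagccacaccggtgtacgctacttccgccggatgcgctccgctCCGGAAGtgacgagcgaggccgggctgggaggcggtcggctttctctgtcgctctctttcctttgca

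Ddx49 and Dhx36 each held both motifs in this window, and the genes moved in opposite directions. Of the other motifs, the palindromic NRF1 site was in 2 helicase promoters (4.55%, against 1.47% of those of tested genes), CCAAT in 43.2% (34.6%), the GC box GGGCGG in 54.6% (55.5%), the interferon-stimulated response element in 2.27% (2.56%) and the YY1 site AAGATGGC in 2.27% (2.08%). These are matches of letters on another assembly than the one the reads were aligned to, and they describe the sequences alone.

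Expression was compared between LSD and saline rats with edgeR's quasi-likelihood test on the read counts of all 16605 genes, and genes with a Benjamini-Hochberg adjusted p under 0.05 are said to pass. Levels are CPM, the reads of a gene scaled by the library total and its TMM factor, given over the 10 rats of a group, and differences are log2 fold changes of LSD over saline with their standard error (SE). Of the 50 helicases, 7 were higher in LSD rats (Ddx46, Dhx9, Ddx42, Ddx3, Dhx36, Ddx21 and Ddx3x) and 1 was lower (Ddx49). Over all genes 15.0% passed the same test, 6.48% higher and 8.54% lower, so that the 16.0% of helicases that passed lie near the background. Split by direction, the shares of helicases were 14.0% higher and 2.0% lower. The median difference was 0.03 on the log2 scale over the helicases and 0.00 over all genes, and the helicases ranged from -0.26 to 0.38. At an unadjusted p under 0.05 there were 17 helicases (13 higher and 4 lower), or 34%, against 30.8% of all genes. DESeq2 called 8 helicases higher (8.75% of all genes) and 3 lower (11.2%), the same 8 with Ddx5, Ddx24 and Dhx34. Without LSD rat 8, 3 of the 7 higher calls were left (Ddx42, Ddx46 and Dhx9), and higher calls over all genes fell from 1076 to 659. Ddx49 remained the single lower call in that fit (over all genes 907, from 1418). Lower helicases numbered 2 without LSD rat 1, saline rat 7 or saline rat 10 (over all genes 1591, 1406 and 1679), and 3 without saline rat 2 (1867).

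**Figure D1:**
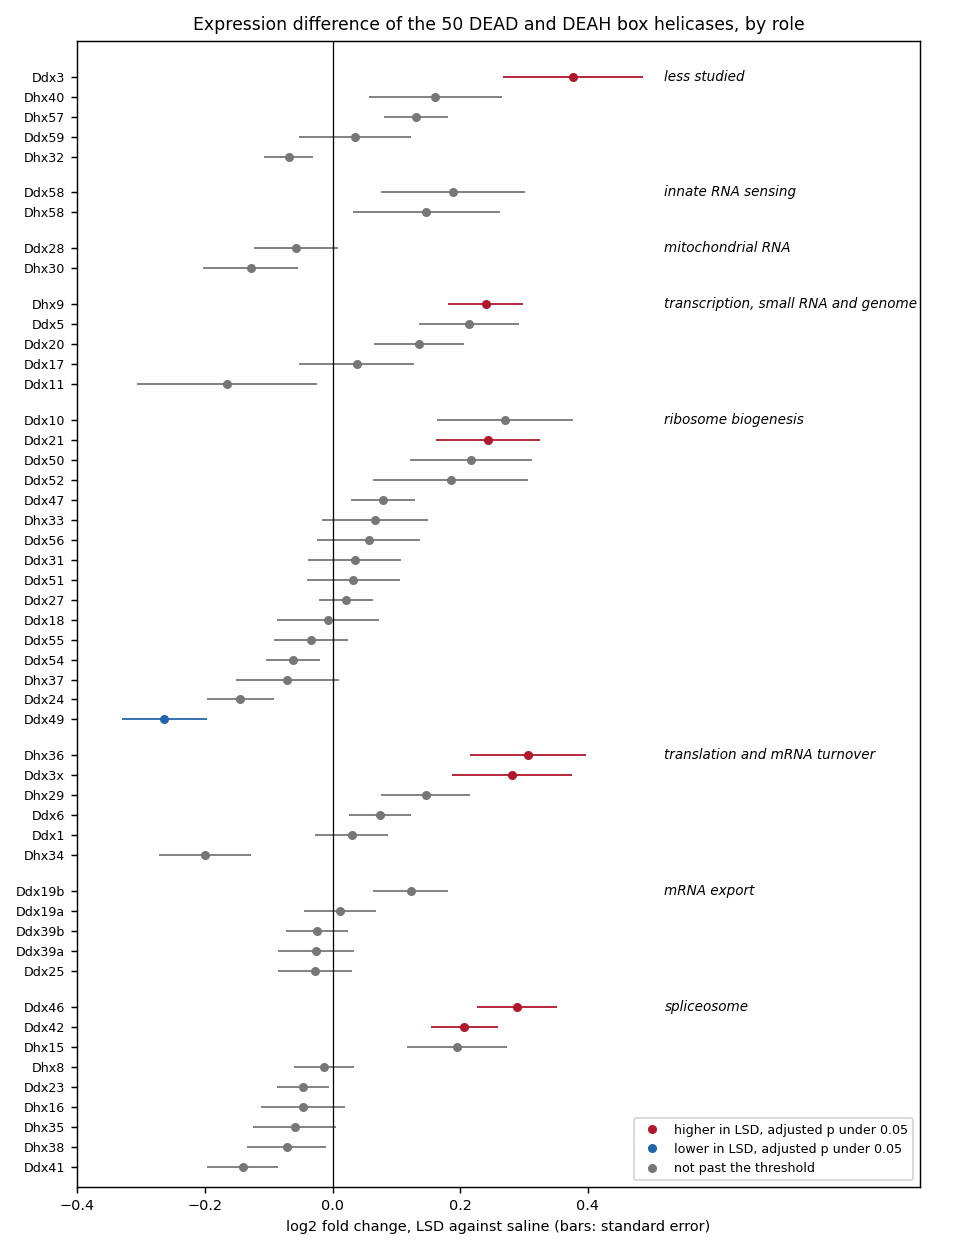
Log2 fold change of LSD over saline for each of the 50 helicases (points, with SE as bars; 10 rats per group), grouped by role. The 7 higher helicases lie between 0.21 and 0.38 and come from 5 roles, and Ddx49 at -0.26 is the single lower one. Among the higher ones, Ddx3 is a near copy of Ddx3x. It is the only call among the less studied helicases, a role given to it after seeing the data.

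The libraries of the LSD rats were larger. Between 16346629 and 25552681 reads fell on genes in an LSD rat (median 20271086), and between 11098076 and 24201351 in a saline rat (median 16815424). With the log2 of this number as a covariate, chosen after seeing the data, edgeR called 0 of the 50 helicases, against 534 genes higher (3.22%) and 639 lower (3.85%) over all genes. In that fit 5 helicases had an unadjusted p under 0.05 (4 higher and 1 lower), and the 8 named above kept their sign with adjusted p between 0.0506 (Ddx46) and 0.613 (Ddx3x). Restricted to the 8 LSD and 6 saline rats whose libraries lay in the range that both groups share, edgeR called no gene at all (0.0% in either direction; 2821 genes and 2 helicases, both higher, at an unadjusted p under 0.05). With every library drawn down to 11098076 reads, 6 of the 7 higher helicases and Ddx49 passed, against 5.62% of all genes higher and 6.91% lower. Every helicase difference given here stands beside this difference in library size.

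The spliceosome is taken through its cycle by a chain of helicases, and 9 of them were measured. Ddx46, which remodels the U2 particle when the branch point is chosen, lay between 59.9 and 80.9 CPM in LSD rats (median 69.8) and between 49.0 and 67.7 CPM in saline rats (median 55.2). All 10 LSD rats were above the saline median and 7 were above the highest saline rat. The difference was 0.29 on the log2 scale (SE 0.062, edgeR adjusted p = 0.00705), or 1.22-fold, and it passed in all 20 fits that left out 1 rat (0.26 to 0.32). With library size as a covariate it was 0.22, with an adjusted p of 0.0506 in a range of 0.000523 to 0.229 over the 11 alternatives.

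Ddx42, another helicase of the U2 step, ranged from 67.3 to 85.6 CPM in LSD rats (median 78.1) and from 59.5 to 76.4 CPM in saline rats (median 67.8). The groups overlapped, but 6 LSD rats exceeded every saline rat and 9 exceeded the saline median. The difference was 0.21 (SE 0.052, edgeR adjusted p = 0.0139) and passed without any 1 rat. The covariate for library size brought it to 0.11 (adjusted p = 0.135; range over the 11 alternatives 0.00254 to 0.339).

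The remaining 7 spliceosomal helicases did not pass the test, and 6 of them lay on the negative side, of which Dhx8, Dhx16, Dhx35 and Dhx38 turned positive with library size as a covariate. Dhx15, which releases the intron lariat and takes spent spliceosomes apart, was the exception on the positive side, with 33.3 to 47.4 CPM in LSD rats (median 38.2), 26.4 to 43.3 CPM in saline rats (median 35.1) and a difference of 0.19 (SE 0.079, edgeR adjusted p = 0.0944). It passed with the replicate number as a block (edgeR adjusted p = 0.0460, range over the 11 alternatives 0.0460 to 0.873). Ddx23, which lets U6 replace U1 at the start of the intron, varied least of the 9 in either group, at 129 to 141 CPM in LSD rats (median 137) and 127 to 153 CPM in saline rats (median 138), with a difference of -0.05 (adjusted p = 0.478). The whole span of Ddx23 overlaps Tuba1c on the opposite strand in GRCr8. As the strand setting of the counting is not given, the reads of Ddx23 are uncertain. The enzymes of the later steps sat close together: Dhx16, which activates the spliceosome for the first cut, at -0.05, Dhx38, which acts between the cuts, at -0.07, and Dhx8, which releases the joined mRNA, at -0.01. Ddx41, found with the late spliceosome and mutated in some myeloid leukaemias, was at -0.14 (edgeR adjusted p = 0.086), and Dhx35 at -0.06. The median over the 9 was -0.05, so the 2 calls did not stand for the group.

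None of the 5 helicases of mRNA export passed. Ddx39b (UAP56), which loads export factors onto spliced mRNA, lay between 159 and 198 CPM in LSD rats (median 185) and between 160 and 201 CPM in saline rats (median 192), and the groups covered almost the same range. Its paralog Ddx39a, whose whole span overlaps Adgre5 on the opposite strand in GRCr8, differed by -0.03 (edgeR adjusted p = 0.814). At the outer face of the nuclear pore, where Ddx19 proteins strip the export factor from mRNA, Ddx19b differed by 0.12 (SE 0.059, adjusted p = 0.164) and Ddx19a by 0.01 (adjusted p = 0.916). Ddx25, best known from the germ line, was counted in every library (medians 39.0 and 38.6 CPM) and differed by -0.03.

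Of the 6 helicases of translation and mRNA turnover, Dhx36 and Ddx3x were higher in LSD rats. Dhx36, which unwinds G-quadruplexes in RNA and DNA, lay between 39.1 and 55.0 CPM in LSD rats (median 45.0) and between 24.6 and 47.7 CPM in saline rats (median 38.2). The groups overlapped in their upper range: all 10 LSD rats were above the saline median, yet 2 were above the highest saline rat. The difference was 0.31 (SE 0.091, edgeR adjusted p = 0.0273). Without LSD rat 8 the call was lost (adjusted p = 0.0553), and it was 0.11 with library size as a covariate (adjusted p = 0.333; range over the 11 alternatives 0.0116 to 0.505).

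Ddx3x, an X-linked helicase that helps ribosomes start on structured mRNAs, lay between 123 and 173 CPM in LSD rats (median 143) and between 88.2 and 158 CPM in saline rats (median 126). The difference was 0.28 (SE 0.094, edgeR adjusted p = 0.0453), close to the threshold, and it passed in 7 of the 20 fits that left out 1 rat. Its level followed library size in both groups. Across the 10 LSD rats Pearson's r was 0.95 (adjusted p = 0.0008, permutation test) and Spearman's rho 0.90 (adjusted p = 0.006, permutation test), and r was 0.92 (adjusted p = 0.0248, permutation test) without the 2 rats of most extreme depth. Across the 10 saline rats r was 0.83 (adjusted p = 0.00944, permutation test) and rho 0.90 (adjusted p = 0.006, permutation test), and r was 0.87 (adjusted p = 0.0586, permutation test) without the 2 extreme rats. These are 2 of 16 relations computed for the 8 helicases in the 2 groups, two-sided and adjusted together. Adjusted for library size by the covariate, the difference in Ddx3x was 0.05 (edgeR adjusted p = 0.613; range over the 11 alternatives 0.0133 to 0.748).

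Whether the relation with library size differed between helicases was not tested. Within the LSD rats, r with library size ran from 0.29 for Ddx21 to 0.95 for Ddx3x, and within the saline rats from 0.11 for Dhx9 to 0.83 for Ddx3x. At an adjusted permutation p under 0.05, it passed for 3 of the 7 in LSD rats and for 4 of the 7 in saline rats by r, and for 2 in each by rho. The relation was not computed for other genes, so these counts have no share over all genes beside them. Without the 2 rats of most extreme depth in a group, the adjusted p stayed under the threshold for Ddx3x in LSD rats alone. Ddx49 ran the other way, with r of -0.66 in LSD rats (adjusted p = 0.0562, permutation test) and -0.85 in saline rats (adjusted p = 0.00939, permutation test) and rho of -0.53 and -0.70 (adjusted p = 0.194 and 0.0697, permutation test). Over the 8 rats left in each group without the extreme ones, r was -0.30 and -0.59 (adjusted p = 0.605 and 0.217, permutation test).

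**Figure D2:**
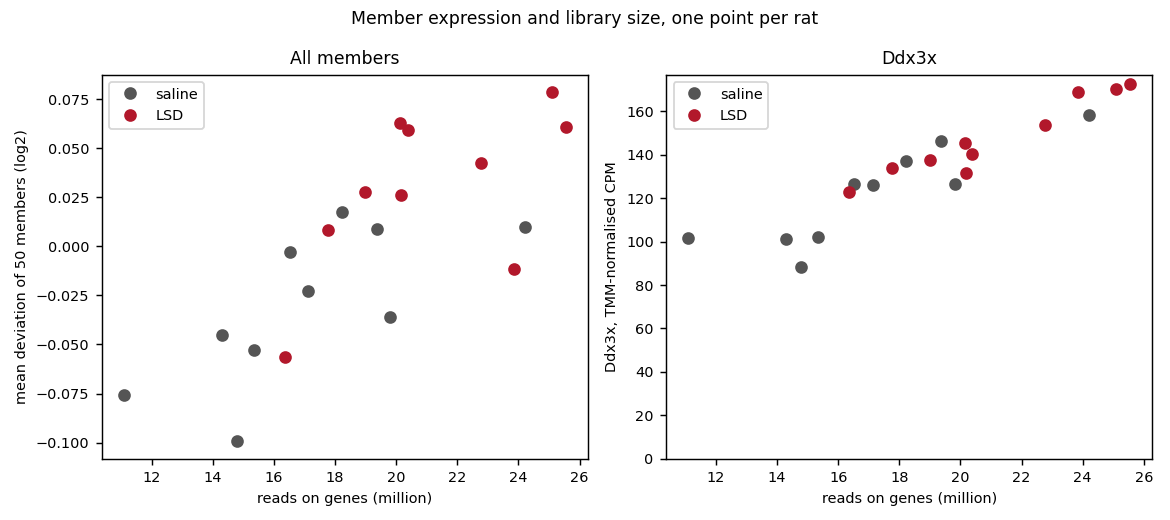
Left, the mean deviation of the 50 helicases from their means over all rats (log2) and right, Ddx3x (TMM-normalised CPM) against the reads on genes of each rat (axis in units of 1e6 reads), 1 point per rat. Ddx3x climbs with library size in both groups, from 88.2 CPM among the small saline libraries to 173 CPM in the largest LSD library.

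The other 4 helicases of this group did not pass. Ddx6, which holds mRNAs silent in P-bodies, lay between 35.9 and 46.1 CPM in LSD rats (median 42.4) and between 36.4 and 43.6 CPM in saline rats (median 39.7), a difference of 0.07 (edgeR adjusted p = 0.315). Ddx1, which takes part in tRNA ligation and RNA granules, had medians of 112 and 111 CPM and a difference of 0.03 (adjusted p = 0.776). Dhx29, which helps the small ribosomal subunit scan structured leaders, differed by 0.15 (adjusted p = 0.157). Dhx34, which acts in nonsense-mediated decay, had 15.6 to 20.3 CPM in LSD rats (median 18.2) and 15.7 to 24.8 CPM in saline rats (median 20.8). No LSD rat was above the saline median of Dhx34, and its difference of -0.20 (edgeR adjusted p = 0.0617) passed with DESeq2 (adjusted p = 0.0476; range over the 11 alternatives 0.0476 to 0.77).

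Ribosome biogenesis was the most numerous role, with 16 helicases, of which Ddx21 was higher and Ddx49 lower in LSD rats. Ddx49, a nucleolar helicase needed for early processing of ribosomal RNA, lay between 19.4 and 24.5 CPM in LSD rats (median 21.2) and between 20.3 and 30.6 CPM in saline rats (median 26.0). None of the 10 LSD rats reached the saline median and 3 were below the lowest saline rat. The difference was -0.26 (SE 0.067, edgeR adjusted p = 0.0134), and it passed without any 1 rat (-0.29 to -0.23). In the fit with the library-size covariate it was -0.12 (adjusted p = 0.167; range over the 11 alternatives 0.00356 to 0.325). The gene overlaps Homer3 on the opposite strand in GRCr8, and as the strand setting of the counting is not given in the sources used here, reads of the 2 genes in the shared stretch cannot be told apart.

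Ddx21, which couples RNA polymerase I transcription to ribosomal RNA processing, lay between 7.46 and 9.45 CPM in LSD rats (median 8.82) and between 5.67 and 9.26 CPM in saline rats (median 6.99). All 10 LSD rats were above the saline median, although 1 alone exceeded the highest saline rat. The difference was 0.24 (SE 0.081, edgeR adjusted p = 0.0448). It passed in 6 of the 20 fits that left out 1 rat and missed the threshold with reads drawn to equal depth (0.24, adjusted p = 0.0971) and with no filter on low counts (0.26, adjusted p = 0.0624), where the difference itself was as large (adjusted p range over the 11 alternatives 0.0266 to 0.463). Its counts were low (74 to 237 reads per rat), and 9 pseudogenes or like genes named after Ddx21 are in the GRCr8 annotation, so its reads are uncertain. Such copies are listed for 8 of the 50 helicases, among them Ddx5 (3), Ddx18 (3), Ddx6 (2), Ddx41 (2) and Ddx3x (1).

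The remaining 14 ribosomal helicases ranged from -0.14 to 0.27 and none passed. Ddx10, needed for the small subunit, was at 0.27 (SE 0.107, edgeR adjusted p = 0.0868), and Ddx50, the close paralog of Ddx21 that stands next to it in the genome, at 0.22 (adjusted p = 0.124). With the replicate number as a block, Ddx10 passed (edgeR adjusted p = 0.0377, range over the 11 alternatives 0.0377 to 0.974). Ddx24 was the lowest of the 14 at -0.14 (SE 0.053, edgeR adjusted p = 0.0642), with 111 to 135 CPM in LSD rats (median 122) and 115 to 149 CPM in saline rats (median 139). No LSD rat was above the saline median of Ddx24, and it passed with DESeq2 (adjusted p = 0.0465; range over the 11 alternatives 0.0338 to 0.52). The helicases of the large and small subunit in between, Ddx52, Ddx47, Dhx33, Ddx56, Ddx31, Ddx51, Ddx27, Ddx18, Ddx55, Ddx54 and Dhx37, lay between -0.07 and 0.19. The median of all 16 was 0.03.

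**Figure D3:**
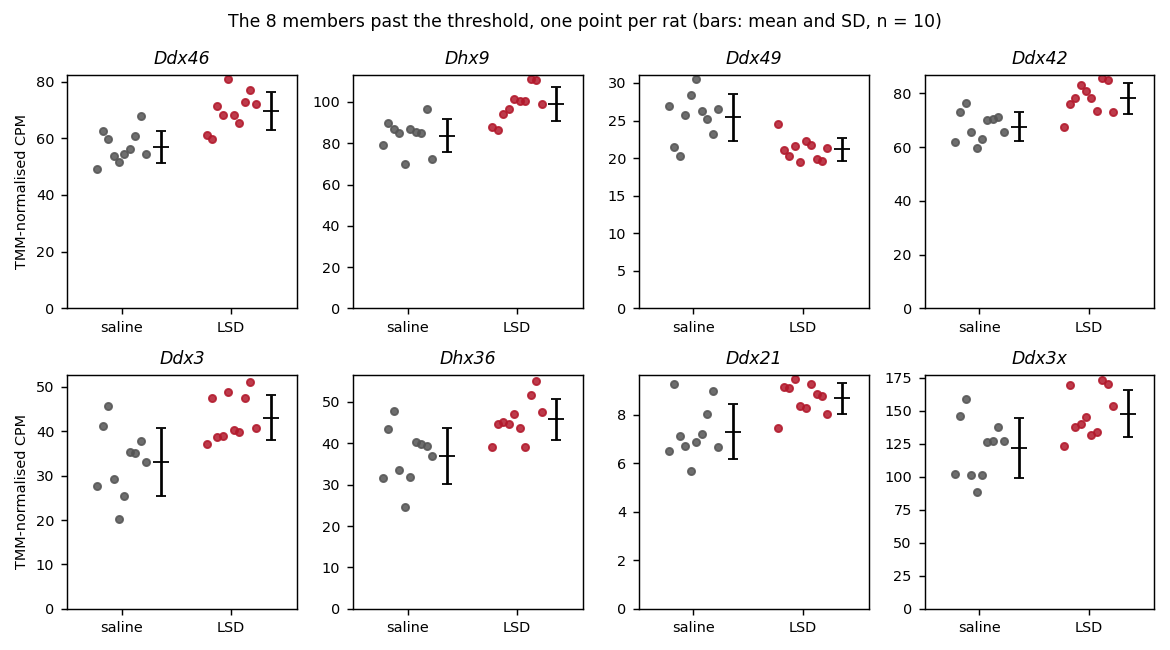
TMM-normalised CPM of the 8 helicases that passed the test, 1 point per rat (grey, saline; red, LSD), with mean and SD of the 10 rats as bars. The groups overlap for each gene; 7 LSD rats lie above every saline rat for Ddx46 and Dhx9, and 1 for Ddx21.

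Among the 5 helicases of transcription, small RNA and genome maintenance, Dhx9 was higher in LSD rats. Dhx9 (RNA helicase A), which resolves double-stranded RNA and R-loops and bridges transcription factors to RNA polymerase II, lay between 86.6 and 111 CPM in LSD rats (median 99.8) and between 70.1 and 96.5 CPM in saline rats (median 85.3). All 10 LSD rats were above the saline median and 7 were above the highest saline rat. The difference was 0.24 (SE 0.059, edgeR adjusted p = 0.0115) and passed without any 1 rat (0.21 to 0.26). The fit with the library-size covariate gave 0.20 (adjusted p = 0.0674; range over the 11 alternatives 0.00226 to 0.24).

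Ddx5 and Ddx17 are paralogs that act as coregulators of transcription and in microRNA processing. Ddx5 had the most reads of all the helicases, 3675 to 13623 per rat. It lay between 373 and 510 CPM in LSD rats (median 445) and between 291 and 475 CPM in saline rats (median 395), and 9 LSD rats were above the saline median. Its difference of 0.21 (SE 0.079, edgeR adjusted p = 0.0670) missed the threshold in the main test and passed with DESeq2 (adjusted p = 0.0421; range over the 11 alternatives 0.0144 to 0.866). Ddx17 had medians of 139 CPM in LSD rats and 141 CPM in saline rats and a difference of 0.04 (adjusted p = 0.822). With library size as a covariate the order of the paralogs was the other way, 0.03 for Ddx5 and 0.18 for Ddx17, and the difference between them was not tested. Ddx20 (Gemin3), a part of the SMN complex, was at 0.14 (adjusted p = 0.193), and Ddx11, a DNA helicase of sister chromatid cohesion with the fewest reads of all (31 to 74 per rat), at -0.17 (SE 0.141, adjusted p = 0.457).

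The mitochondrial helicases did not pass. Dhx30, which works on mitochondrial ribosomes and whose variants cause a neurodevelopmental disorder, lay between 164 and 212 CPM in LSD rats (median 193) and between 162 and 250 CPM in saline rats (median 205), a difference of -0.13 (SE 0.074, edgeR adjusted p = 0.252). Its sign turned with library size as a covariate, to 0.05. Ddx28, an assembly factor of the mitochondrial ribosome, differed by -0.06 (adjusted p = 0.599) and turned to 0.03 with offsets for gene span. The whole span of Ddx28 overlaps Dus2 on the opposite strand in GRCr8.

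The sensors of viral RNA were expressed at low levels. Ddx58 (RIG-I), which recognises RNA with a 5′ triphosphate, lay between 4.23 and 7.49 CPM in LSD rats (median 6.25) and between 3.70 and 6.29 CPM in saline rats (median 5.18), a difference of 0.19 (SE 0.113, edgeR adjusted p = 0.267). Its relative Dhx58 (LGP2) had 36 to 124 reads per rat, medians of 4.18 and 3.71 CPM and a difference of 0.15 (adjusted p = 0.414). Ddx60, which also takes part in antiviral responses, had at most 11 reads in any rat.

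Ddx3 had the largest difference of the 50. It lay between 37.1 and 51.2 CPM in LSD rats (median 40.5) and between 20.2 and 45.7 CPM in saline rats (median 34.1), with all 10 LSD rats above the saline median and 4 above the highest saline rat. The difference was 0.38 (SE 0.110, edgeR adjusted p = 0.0250). Without LSD rat 8 the call was lost (adjusted p = 0.0503), and with library size as a covariate the difference was 0.14 (adjusted p = 0.28; range over the 11 alternatives 0.00934 to 0.436). RefSeq lists this gene with the synonym Ddx3yl, and it is a near copy of Ddx3x, so how the counting split reads between them is uncertain. The reads of Ddx3 amounted to 26.6 to 33.6% of those of Ddx3x in LSD rats (median 29.0%) and to 22.9 to 28.8% in saline rats (median 27.7%). Added together and tested as 1 gene, an alternative chosen after seeing the data, they differed by 0.30 (SE 0.096, edgeR adjusted p = 0.0367).

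**Figure D4:**
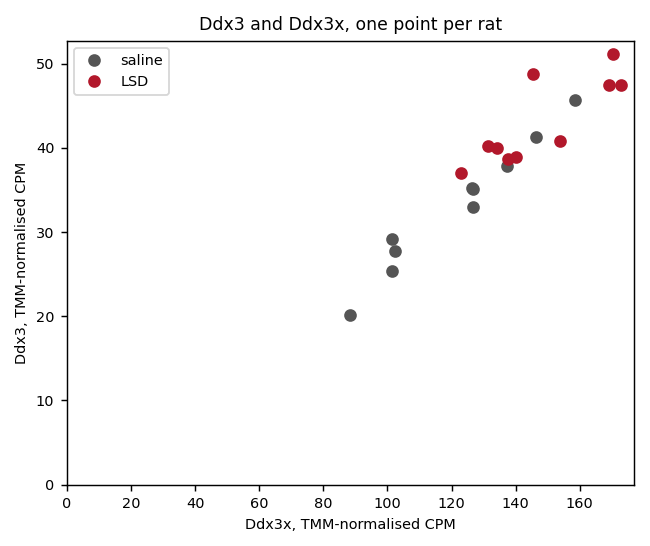
TMM-normalised CPM of Ddx3 against Ddx3x, 1 point per rat (grey, saline; red, LSD). The points of both groups lie along 1 band, from 88.2 CPM of Ddx3x and 20.2 CPM of Ddx3 in a saline rat up to 173 and 51.2 CPM as the highest values among LSD rats.

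The other less studied helicases did not pass. Dhx57 had 41.6 to 52.7 CPM in LSD rats (median 47.2) and 36.1 to 47.3 CPM in saline rats (median 43.7), a difference of 0.13 (SE 0.050, edgeR adjusted p = 0.0769). It passed with scaling by total counts (adjusted p = 0.0313; range over the 11 alternatives 0.0313 to 0.454), a scaling that shifts the median of all genes to 0.05. Dhx40 was at 0.16 (adjusted p = 0.309), Ddx59 at 0.03 and Dhx32 at -0.07 (adjusted p = 0.234, and 0.0442 with offsets for gene span; range over the 11 alternatives 0.0442 to 0.758).

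The 7 higher helicases were also compared rat by rat. They were chosen for being higher in LSD rats, so the tally of LSD rats restates their calls and adds no support. Of the 7, all were above their saline median in 9 LSD rats and 5 were in LSD rat 1, which had the smallest LSD library and the lowest value of its group for 5 of them. Of the saline rats, which lie on both sides of their own median by definition, rats 2, 8 and 10 had all 7 above the saline median, rats 6 and 7 had 6, rats 5 and 9 had 1, and rats 1, 3 and 4 had 0. Saline rat 2, with the largest saline library, was the highest saline rat for 4 of the 7, and saline rat 4 the lowest for 6. Over all 50 helicases the mean deviation was 0.03 ± 0.041 in LSD rats and -0.03 ± 0.039 in saline rats (SD, n = 10, log2), and the helicases together took 0.242 to 0.289% of gene reads in LSD rats and 0.226 to 0.267% in saline rats. The coefficient of variation between rats was larger in saline for 41 of the 50 (82%), against 77.5% of all genes, with medians of 8.3% in LSD and 11.5% in saline rats. The library sizes themselves varied by 14.7% in LSD and 21.1% in saline rats.

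**Figure D5:**
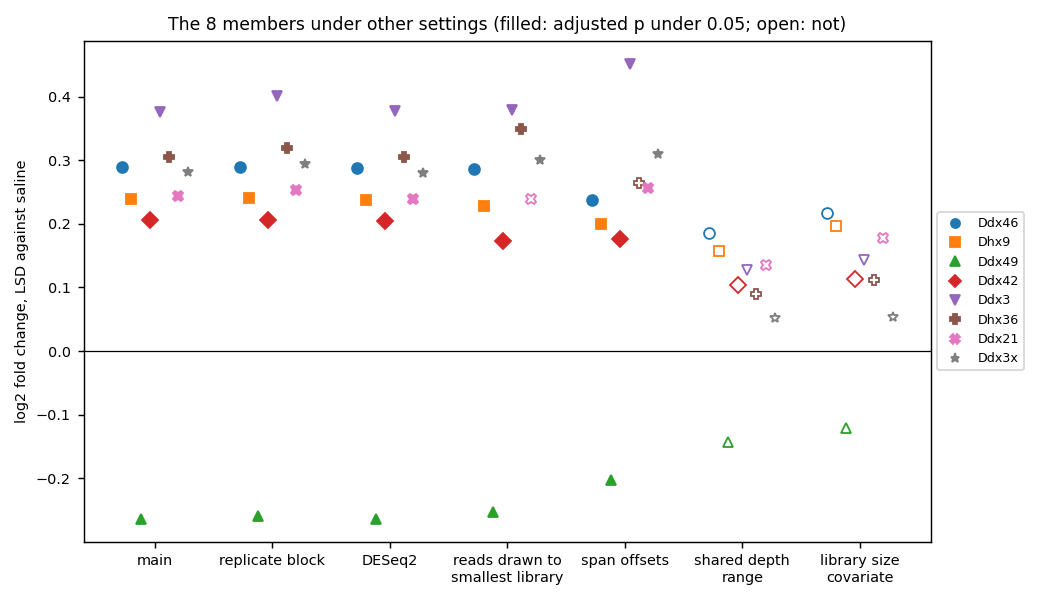
Log2 fold change of the 8 helicases in the main test and under 6 alternatives (filled, adjusted p under 0.05; open, not). The signs hold in each, and every symbol is open for the libraries in the shared depth range and for library size as a covariate.

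Other genes of the same pathways were read from the same fit. Of 22 RNA helicases under other names, 3 were higher and 0 lower, among them Dicer1, which cuts microRNA precursors, at 0.22 (edgeR adjusted p = 0.00912; medians 48.3 CPM in LSD and 41.4 CPM in saline rats) and Ythdc2, a reader of m6A with a helicase domain, at 0.41 (adjusted p = 0.0106; 16.8 and 13.1 CPM). The DEAD box proteins of the translation start and the exon junction, Eif4a1, Eif4a2 and Eif4a3, differed by 0.01, 0.06 and -0.13 and did not pass. Of 22 G-patch proteins, which switch on DEAH helicases, Nkrf was higher at 0.48 (adjusted p = 0.00408; 6.80 and 4.79 CPM) and Gpank1 lower at -0.22 (adjusted p = 0.0318). Of 16 partners of the eIF4F complex and MIF4G proteins, Cwc22, which brings Eif4a3 to the spliceosome, was higher at 0.27 (adjusted p = 0.0233), as was Cnot1, the scaffold on which Ddx6 docks, at 0.18 (adjusted p = 0.0483), while Eif4h, a cofactor of Eif4a, was lower at -0.15 (adjusted p = 0.0434).

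Of 14 genes of the nuclear exosome, which degrades RNA that helicases feed to it, the nuclease Dis3 was higher at 0.37 (edgeR adjusted p = 0.0228), and the ring subunits Exosc4 and Exosc5 were lower at -0.27 (adjusted p = 0.00666) and -0.30 (adjusted p = 0.0119). None of the 15 genes of the exon junction complex and mRNA export passed with edgeR (4 had an unadjusted p under 0.05). In all, 7 genes of these lists (22, 22, 16, 14 and 15 genes) were higher and 4 lower, beside 6.48% and 8.54% of all genes. With library size as a covariate in edgeR, 5 were higher and 3 lower, beside 3.22% and 3.85% of all genes. Among them were Dicer1 (adjusted p = 0.0467), Nkrf (0.0292) and Exosc4 (0.0382), whereas Ythdc2 (0.0768) and Exosc5 (0.07) did not pass. The difference between these genes and the Ddx and Dhx genes in that fit was not tested.

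Markers of the tissue were read beside the helicases. The 5 markers of cortical excitatory neurons summed to 3290 to 4384 CPM in LSD rats and 3377 to 5115 CPM in saline rats, and 0 of them passed with edgeR (1 had an unadjusted p under 0.05). Of 5 inhibitory neuron markers (637 to 797 CPM and 677 to 920 CPM), Gad2 was higher at 0.23 (adjusted p = 0.0369), and Slc32a1 at -0.34 (adjusted p = 0.018) and Sst at -0.28 (adjusted p = 0.0222) were lower. With the library-size covariate in edgeR, Sst at -0.32 (adjusted p = 0.0405) passed, and Gad2 at 0.20 (0.128) and Slc32a1 at -0.12 (0.298) did not. Markers of the neighbouring striatum summed to 101 to 207 CPM in LSD and 116 to 317 CPM in saline rats: all 5 were on the negative side (-1.06 to -0.27) with an unadjusted p under 0.05, and 0 passed after adjustment (0.0671 to 0.0872). In the fit with the library-size covariate, where no helicase passed, 4 of these 5 did: Adora2a at -1.57 (adjusted p = 0.0295), Drd1 at -0.98 (0.0247), Drd2 at -1.19 (0.0381) and Rgs9 at -1.25 (0.0292). Oligodendrocyte markers ranged from 1980 to 5328 CPM and from 1937 to 6941 CPM. All 5 of them lay on the negative side (-0.48 to -0.22), 2 with an unadjusted p under 0.05, and 0 passed with edgeR. With the library-size covariate in edgeR, Mbp at -0.75 (adjusted p = 0.0326) and Mobp at -0.74 (0.0394) passed, and Mag (0.0599) did not. Astrocyte markers ranged from 1714 to 2360 CPM and from 1606 to 2426 CPM, microglial markers from 226 to 376 CPM and from 233 to 313 CPM, and endothelial markers from 213 to 262 CPM and from 219 to 275 CPM. Meningeal markers ranged from 25.1 to 125 CPM and from 36.4 to 223 CPM, and those of the choroid plexus were near 0 (at most 5.17 CPM in any rat). Blood markers ranged from 86.4 to 213 CPM and from 135 to 363 CPM. Of these, Hbb was lower at -0.50 (edgeR adjusted p = 0.0434, and 0.173 with the library-size covariate). No marker was at 0 in all rats, and the part of these cells and regions in the helicase differences was not tested.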

How the data were processed

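Poly(A) RNA of the mPFC was sequenced in 10 LSD and 10 saline rats, 1 library each, grouped by the titles of the samples. Reads were trimmed (TrimGalore), aligned to rn6, or Rnor_6.0 (HISAT2), and counted per gene (HTSeq-count) by the authors, whose deposited values are raw counts, neither normalised nor filtered. Tool versions, the gene annotation and the strand setting are not given in the sources used here. The 5 rows without a name were left out of all steps; they hold 25.5% to 29.0% of what was counted in a library. Symbols in the table carry no coordinates, and RefSeq GRCr8 served for names, neighbours and promoters.

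A gene was kept where 10 or more libraries had 5 or more of its reads. Differences were tested with edgeR 4.0.16 in R 4.3.3 (TMM scaling, quasi-likelihood F test, Benjamini-Hochberg over 16605 genes, threshold 0.05), and the SE is the log2 fold change divided by the square root of F. The rats are separate animals, so the p-values set the difference between the groups against the spread between rats. DESeq2 1.42.0, other scalings and filters, reads drawn to 11098076 per library, offsets for gene span, the replicate number as a block and each rat left out were alternatives. Relations with library size used log2 values and 100000 permutations of the rats.

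The members and lists were chosen with earlier results of these data known. The library-size covariate, the shared depth range, the sum of Ddx3 and Ddx3x, the relations with library size, the coefficients of variation, the promoter motifs and the role given to Ddx3 were added after seeing the data. Genes are named if they are members past the threshold, members on a list of 18 named for their roles, members with the most or fewest reads or below the filter, list genes past the threshold, or members whose call changed under an alternative; others complete the roles. A gene that this rule names is not reported here.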

Additional observations from a re-analysis of the deposited data

Results flagged for a closer look

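For 5 of 100 combinations of helicase and group, 1 rat stood apart from the other 9 by Dixon's test on log2(CPM + 1), which chance does for about 1 group in 20. Ddx31 was lowest in LSD rat 6, at 6.61 CPM with the next rat at 8.10 CPM, a gap of 0.511 of the group's range. In the same rat Ddx56 was highest, at 13.6 CPM with the next at 10.5 CPM (0.582). LSD rat 10 was lowest for Ddx39b, at 159 CPM with the next at 177 CPM (0.484), and for Ddx51, at 13.5 CPM with the next at 16.7 CPM (0.582). Dhx57 was lowest in saline rat 9, at 36.1 CPM with the next at 42.1 CPM (0.568). None of these 5 genes passed the edgeR test between the groups.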

How the results depend on the processing

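All 8 helicases that passed kept their sign in every alternative. The count of helicases higher (7) and lower (1) fell to 0 and 0 with library size as a covariate (534 and 639 over all genes) and in the shared depth range (0 and 0; fewer rats). Lower calls rose to 3 with DESeq2 and to 2 with span offsets, and the median of 0.0345 lay between 0.0194 (shared range) and 0.0778 (total counts), with 0.0199 for the covariate and 0.0516 with no filter. Over all genes (1076 higher, 1418 lower), span offsets gave 562 higher, and no filter gave 836 and total counts 858 lower. Other genes of the pathway (7 and 4) gave 4 higher with drawn reads, 13 higher and 2 lower with total counts, 2 lower with no filter and with span offsets alone or with the replicate block, and 0 and 0 in the shared range. Markers (1 and 3) gave 0 higher with the covariate and with span offsets, and 5 (DESeq2), 9 (covariate), 5 (span offsets with replicate block) and 1 (span offsets) lower, and 0 and 0 in the shared range. The replicate block gave 10 helicases higher and 2 lower (1355 and 1606 over all genes), and 11 markers lower. Whether equal numbers pair the rats is not stated in the labels and was not tested. Of same-numbered pairs, 6 of 10 correlated above 0.1 (mean 0.145, range -0.259 to 0.467), against a mean of -0.0157 between other numbers. Of the LSD rats, 1 correlated best with its own number. Leaving out 1 rat gave 3 to 10 helicases higher and 1 to 3 lower, 659 to 1681 and 907 to 1867 over all genes (659 and 907 without LSD rat 8, 1681 without saline rat 2, 705 higher without saline rat 4), 6 to 12 and 2 to 8 pathway genes (12 without saline rat 2, 11 without saline rat 8, 8 lower without saline rat 10) and 0 to 2 and 2 to 8 markers (8 without LSD rat 9). Changes of sign were counted for the helicases alone, with no share over all genes. Of the 42 helicases that had not passed, the sign changed for 16 with the covariate, 15 in the shared range, 7 with total counts, 5 with span offsets, 3 with drawn reads, 2 with no filter and 0 to 3 without 1 rat. Among those named by the rule in the methods, it changed with the covariate for Ddx1 (-0.0795), Ddx19a (-0.0732), Ddx39b (0.0447) and Dhx30 (0.0450); in the shared range for Ddx1 (-0.0937), Ddx10 (-0.00677), Ddx11 (0.0329), Ddx19a (-0.0552), Ddx39b (0.0333) and Dhx30 (0.0413); with span offsets, without and with the block, for Ddx28 (0.0298, 0.0341), Ddx39a (0.0328, 0.0305) and Ddx39b (0.00804, 0.00862); with total counts for Ddx39a (0.0195) and Ddx39b (0.0225); with drawn reads for Ddx39a (0.0165). Without 1 rat, Ddx17 ranged from -0.0155 to 0.0691, Ddx19a from -0.00358 to 0.0362, Ddx39a from -0.0472 to 0.00604 and Ddx39b from -0.0453 to 6.2e-06. Except where the construction shows it, the cause was not tested. Span and log2 difference correlated across 14924 genes (rho 0.36) and across the 50 helicases (0.184), as a description. Of the 50, 21 overlap another gene in GRCr8, with pseudogenes and genes of small RNAs counted. The shortest overlap is 13 bases (Ddx58), and the share over all genes was not computed. Ddx23 (17282 bases, with Tuba1c), Ddx28 (1931, with Dus2) and Ddx39a (7949, with Adgre5) are overlapped over their whole span on the opposite strand. As the strand setting of the counting is not given, their reads are uncertain.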
